A study of Mus musculus with 16 samples.

Results

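The cytoplasmic ribosome of a mouse cell carries a fixed set of proteins, named Rps for the small subunit, Rpl for the large subunit and Rplp for the stalk that recruits translation factors. The genes described here were those whose mapped mouse symbol was Rpsa, Rplp0, Rplp1 or Rplp2 or followed the Rpl or Rps plus number form with an optional a, l or x, which leaves out pseudogenes and the ribosomal protein kinases. The rule used names only and found 83 genes among the 50686 genes counted, of which 48 belong to the large subunit, 32 to the small subunit and 3 to the stalk.

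Ribosomal protein genes are usually expressed together, and their proteins are degraded when they are not assembled into a ribosome. Most of them begin with a terminal oligopyrimidine (TOP) tract, a run of C and T at the very start of the message, through which mTOR signalling sets how heavily they are translated. Rps6 is the classic substrate of S6 kinase in that pathway, and a fast-dividing lymphoid cell spends a large part of its transcription on ribosomes.

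Gene counts came from 16 RNA sequencing libraries of mouse pro-B cell lines (C57BL/6N), made by infecting bone marrow with a retrovirus that carries BCR-ABL1p185 and eGFP. There were 4 wild-type lines, which carry the floxed Cdk8 alleles without Cre, and 4 Cdk8 KO lines, in which the floxed alleles had been deleted by Cre under the haematopoietic Vav promoter. Every line contributed a library after 48 h in DMSO at 0.01% and a library after 48 h in 1 µM Senexin B, an inhibitor of the kinase CDK8 and its paralog CDK19. The lines of a genotype were derived separately, so n = 4 per group counts lines, and every group carried the oncogene, the reporter and the vehicle.

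The libraries held between 13145876 and 18349425 counts on genes. Summed markers of pro-B and pre-B cells lay between 5265 and 7945 counts per 1000000 counts of the library (CPM), and the neutrophil gene Elane and the platelet gene Pf4 had no count in any library. Myeloid markers summed to 0.441 to 24.8 CPM and megakaryocyte markers to at most 1.16 CPM in any library. T cell markers summed to 17.6 to 133 CPM, almost wholly Lck, stromal and endothelial markers to 48.5 to 497 CPM, almost wholly Pecam1, and erythroid markers to 3.65 to 265 CPM, almost wholly Hbb-bt. Cdk8 itself, counted over the whole gene and not over the deleted exon, measured 64.9 ± 3.03 CPM in wild-type DMSO and 44.3 ± 7.10 CPM in Cdk8 KO DMSO (SD, n = 4 each), so this count does not check the deletion.

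The start of the gene is where the TOP tract lies, so the letters around the annotated starts are given for genes that the results below turn on. Windows of 15 bases before and 15 after the start were taken from RefSeq (GRCm38.p6), which had an entry for 61 of the 83 genes, with 73 starts. The remaining genes were not analysed here for sequence. The longest unbroken run of C and T is in capitals, each sequence runs 5′ to 3′ on the strand of the gene, and the annotated start is the 16th letter.
Rps6: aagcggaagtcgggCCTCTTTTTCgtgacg
Rpl15: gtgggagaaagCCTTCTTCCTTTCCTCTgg
Rps26: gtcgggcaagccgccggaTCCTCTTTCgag
Rplp2: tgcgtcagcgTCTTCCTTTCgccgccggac
Rps27l: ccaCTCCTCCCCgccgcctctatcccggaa
Rps19: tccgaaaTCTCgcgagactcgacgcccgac

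These windows lie at chr4:86857353-86857382 on the minus strand for Rps6, at chr14:18270972-18271001 on the minus strand for Rpl15, at chr10:128626492-128626521 on the minus strand for Rps26, at chr7:141447636-141447665 on the plus strand for Rplp2, at chr9:66946071-66946100 on the plus strand for Rps27l and at chr7:24884577-24884606 on the plus strand for Rps19. The run of Rps6 is 10 letters long and that of Rpl15 is 17. Rps26 has a run of 9 letters that begins 3 bases after the annotated start. Rps27l has 2 annotated starts, and the window printed is the one with the longer run, of 9 letters, while the longest run at the other start is 4. Rps19 has 3 annotated starts, the first of which is printed, and the longest runs in their windows are 4, 4 and 7 letters. A run of 8 or more C and T letters stood in 28 of the 73 windows (38.4%), against 12.0% of the 32851 windows of all genes. An annotated start need not be the start these cells use, and a run of these letters is a description of the window.

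In the 300 bases from 250 before to 50 after the start, 5 short motifs were looked for on both strands. CCGGAAG, the core bound by GABP and other ETS factors, was in 26 of the 73 windows (35.6%) and in 8.86% of all 32851. AAGATGG, a core of YY1 sites, was in 11 (15.1% against 6.34%). GGGCGG, a GC box, was in 42 (57.5% against 35.7%), and CACGTG, an E-box, in 8 (11.0% against 7.15%). TATAAA was in 7 (9.59%), against 13.6% of all windows. Overlaps between motifs were not removed.

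The counted levels ranged over more than 3 orders of magnitude, although the proteins are needed in like amounts. Per kilobase of mRNA, the mean level over the 16 libraries reached 4673 CPM in the highest gene. It was 2694 CPM for Rplp1, 1985 CPM for Rplp0 and 1609 CPM for Rpl8, and it was 3.54 CPM for Rps6, 4.07 CPM for Rpl11 and 2.69 CPM for Rpl24. By the defaults of the counting tool only reads that mapped to a single place were counted, and 283 pseudogenes in the annotation are named after a ribosomal protein, with at least 1 for 59 of the 83 genes. The share of 50-base windows of a gene's mRNA that occur in no other annotated gene was therefore computed, and its median was 50.6%. The 22 genes with under 25% of such windows had a median level of 12.9 CPM per kilobase, and the 11 genes with 75% or more had a median of 199 CPM per kilobase. Levels also ranged widely within each class, from 2.69 to 630 CPM per kilobase under 25% and from 0.936 to 4673 at 75% or more. How much of the range comes from reads that were not counted was not tested. Over the 80 genes with a median of at least 1 count, Spearman's rho between unique share and level was 0.384, a description across genes that share the same libraries. Rpl8 was unique over 92.1% of its windows, while Rps6 was unique over 15.4% of its windows, Rpl5 over 6.16% and Rps27 over 1.35%.

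**Figure D1:**
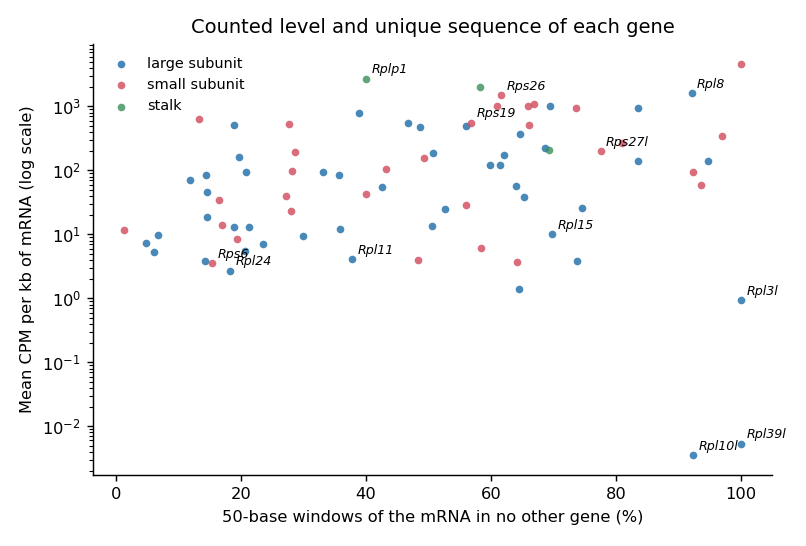
Mean level in CPM per kilobase of mRNA (log axis) against the percent of 50-base windows found in no other gene, 1 point per ribosomal protein gene, coloured by subunit. Genes with little unique sequence, such as Rps6 at 15.4%, sit mostly low, and Rpl8, unique over 92.1% of its windows, is at 1609 CPM per kilobase.

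Levels between ribosomal protein genes were therefore not read as transcript amounts, whereas the same gene can be compared between libraries. The 5 most counted genes held 44.8% of all counts on the 83 genes, and 16 genes had a median below 100 counts. Rps6 was read on 32 to 66 counts per library and Rpl11, which with Rpl5 forms the 5S particle that can bind Mdm2, on 32 to 74. Changes under about the counting error of these reads would not be detectable for them at this depth.

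Copies expressed in other tissues were near absent. Rps4l had 0 counts in every library, which allows up to 0.163 to 0.228 CPM by the limit of 3 counts. Rpl10l, a copy of Rpl10 known from testis, had 1 count in 1 library, and Rpl39l, a copy of Rpl39 also known from testis, had 1 count in 1 library. Rpl3l, the striated muscle form of Rpl3, was read on 1 to 65 counts per library, and Rpl32l on 4 to 12. Rps27l, a p53 target related to Rps27, was well expressed, with a median of 1478 counts and 199 CPM per kilobase, while Rps27 itself, almost wholly shared with other genes, had a median of 62 counts. Rpl6l, at 7.11 CPM per kilobase, shares most of its sequence with other genes (23.6% unique).

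The ribosomal protein genes took a similar share of the counts in the 4 groups, and the lines within a group differed more than the groups. The share was 2.24% ± 0.514 in wild-type DMSO, 2.31% ± 0.434 in wild-type Senexin B, 2.39% ± 0.232 in Cdk8 KO DMSO and 2.33% ± 0.256 in Cdk8 KO Senexin B (SD, n = 4 each). The wild-type DMSO lines 1 to 4 had 2.97%, 1.86%, 1.91% and 2.23%. With Senexin B the same lines had 2.77%, 2.44%, 1.73% and 2.29%. The Cdk8 KO lines had 2.35%, 2.49%, 2.63% and 2.09% in DMSO and 2.32%, 2.17%, 2.70% and 2.15% with Senexin B. Wild-type line 1 was the highest of all and wild-type line 3 was low under both conditions, so the Cdk8 KO values fell inside the wild-type range. Reads on the named pseudogenes took only 0.0420% to 0.0797% of counts. In bulk RNA, fewer cells of a type and less RNA per cell cannot be told apart.

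**Figure D2:**
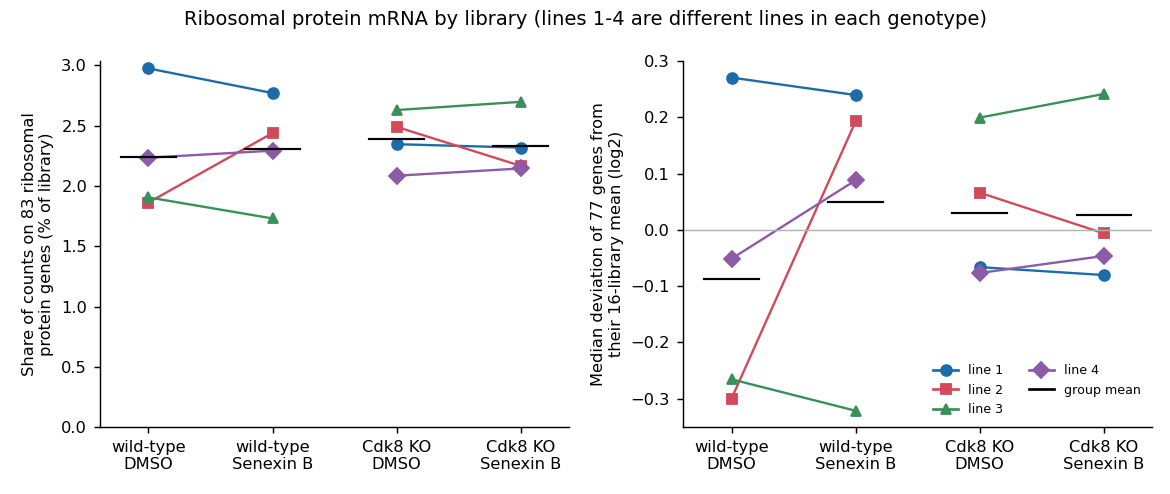
Left, percent of each library's counts on the 83 ribosomal protein genes. Right, median log2 deviation of 77 of them from their mean over 16 libraries, with lines joining each cell line's libraries without and with Senexin B and black bars for group means. Wild-type lines span 1.73% to 2.97%, wider than the Cdk8 KO lines at 2.09% to 2.70%, and wild-type line 2 goes from -0.30 to 0.19.

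The genes moved together from line to line. For the 77 genes with at least 10 counts in every library, each gene's log2 CPM was set against its mean over the 16 libraries. The median deviation was 0.27, -0.30, -0.27 and -0.05 in wild-type DMSO lines 1 to 4 and -0.07, 0.07, 0.20 and -0.08 in Cdk8 KO DMSO lines 1 to 4. Wild-type line 1 had the highest level in DMSO among the wild-type lines for 58 of the 77 genes, and Cdk8 KO line 3 had the highest among the Cdk8 KO lines for 44 in DMSO and 52 with Senexin B. The mean correlation between pairs of these genes over the 16 libraries was 0.379, against 0.001 for pairs among all 10890 genes with that many counts. It was 0.471 for 16 other TOP RNAs (elongation factors and related messages) and 0.258 for 78 mitochondrial ribosomal protein genes. These are descriptions over libraries that include pairs from the same line. The scaling of the libraries holds the median deviation of all genes near zero, so the value of 0.001 is largely set by it. All genes were also not matched to the ribosomal protein genes for level.

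Some ribosomal protein genes stood out of this common movement. Rpl32 followed the median of the others most closely (r = 0.954 over 16 libraries). Rpl27 was at -0.171, Rps27l at -0.058, Rpl28 at -0.048 and Rps14 at -0.010. Among the 77 genes with at least 10 counts in every library, the widest spread between wild-type DMSO lines was that of Rps12, a small subunit protein. It measured 41.1, 11.1, 13.3 and 19.3 CPM in wild-type DMSO lines 1 to 4 and 41.5, 14.0, 11.9 and 21.8 CPM with Senexin B, a 3.69-fold span in DMSO. In the Cdk8 KO lines it lay between 15.9 and 22 CPM, and it was chosen here after its values were seen.

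The first comparison asked whether loss of Cdk8 changes these mRNAs in vehicle-treated cells. No ribosomal protein gene passed the test between Cdk8 KO and wild-type lines in DMSO, and those tested lay slightly above zero as a group. Of 79 genes that passed the filter on low counts, 0 were called by edgeR's quasi-likelihood test (adjusted p below 0.05 and a change above 2-fold), against 0.00759% of 13174 genes tested. Rpl10l, Rpl32l, Rpl39l and Rps4l were not tested for low counts. At an unadjusted p below 0.05 the count was also 0, against 5.32% of all genes, and DESeq2 called 0, against 0.159%. With the replicate number as a block the count was again 0, against 4.11%, but across genotypes the same number marks unrelated lines. This block therefore pairs no libraries of the same line. The median log2 fold change was 0.11 for the ribosomal protein genes and 0.00 for all genes, with 62 higher in Cdk8 KO and 17 lower, where 50.3% of all genes were higher. No gene had all 4 Cdk8 KO lines above or all 4 below the wild-type lines, against 1.48% and 1.66% of all genes.

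That median rested on the wild-type lines taken. Without wild-type DMSO line 1 it was 0.25, with 73 higher and 6 lower. In that fit 10 of the 79 genes had an unadjusted p below 0.05, against 10.6% of all genes. Without line 2 the median was 0.01, without line 3 it was 0.02 and without Cdk8 KO line 3 it was 0.06. No gene was called in any of these fits. The other TOP RNAs had a median of 0.11 with 0 of 16 called, and the mitochondrial ribosomal protein genes had 0.03 with 0 of 78 called. In the other comparisons the TOP RNAs and the ribosomal protein genes differed more. Their medians were 0.03 and -0.01 for genotype with Senexin B and 0.05 and 0.15 for Senexin B in wild-type lines. For Senexin B in Cdk8 KO lines they were -0.08 and 0.00, and for the interaction -0.03 and -0.14.

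**Figure D3:**
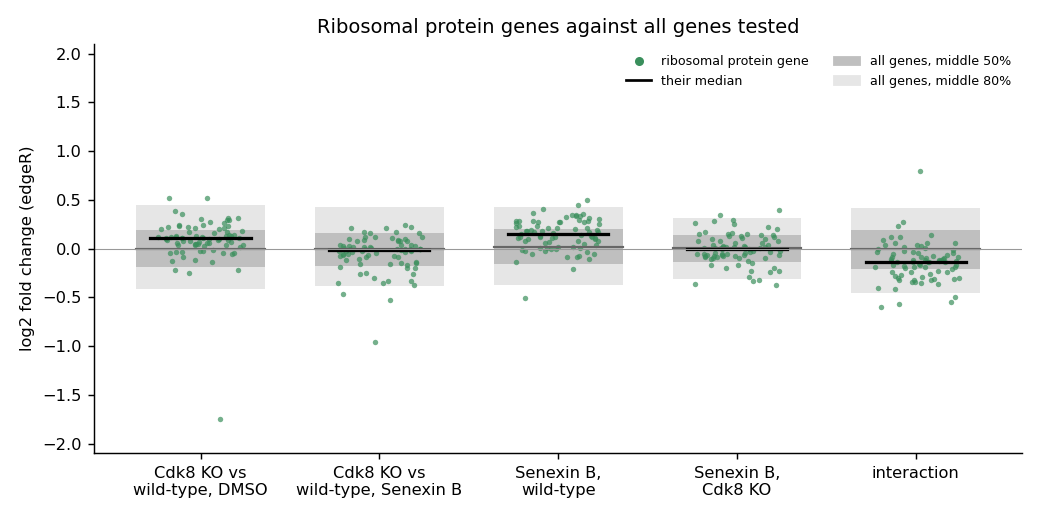
Log2 fold change from edgeR for each ribosomal protein gene tested (green points, black median) in the 5 comparisons, over grey bands for the middle 50% and 80% of all genes tested. The medians are 0.11, -0.01, 0.15, 0.00 and -0.14, and most points lie inside the bands.

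The muscle form Rpl3l measured 3.76, 0.504, 0.697 and 3.78 CPM in wild-type DMSO and 0.125, 1.57, 0.0635 and 0.81 CPM in Cdk8 KO DMSO. Its log2 fold change of -1.75 ± 1.01 (edgeR adjusted p = 0.908) was the largest of the list. Wild-type lines 1 and 4 were high, and Cdk8 KO lines 1 and 3 lay below the limit of 3 counts (0.163 to 0.228 CPM). Leaving out 1 library moved the change between -2.73 and -1.35. Rpl7, Rpl38 and Rps25 had log2 fold changes of 0.31 ± 0.20, 0.35 ± 0.25 and 0.25 ± 0.18. Rpl38, which is known for its role in translating Hox mRNAs, was at 36.1 to 58.6 CPM in wild-type and 39.8 to 86.9 CPM in Cdk8 KO lines.

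With Senexin B in both genotypes, the ribosomal protein genes were centred on zero. Of 79 tested, edgeR called 0, against 0% of 13010 genes, and DESeq2 called 0, against 0.0231%. At an unadjusted p below 0.05 there were 0, against 1.55% of all genes. With the number as a block there were also 0, against 1.96%, and this block likewise pairs unrelated lines. The median was -0.01 beside 0.00 for all genes, with 33 higher in Cdk8 KO and 46 lower, where 49.4% of all genes were higher. Scaled by total counts, which moved the median of all genes to 0.04, the split was 47 to 32. No gene separated the groups in either direction, against 0.546% and 0.453% of all genes. Leaving out 1 library at a time moved the median between -0.13 and 0.05.

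The 5 lowest p values were those of Rpl41, Rps26, Rps4x, Rpl10 and Rpl36a, all lower in Cdk8 KO on average. Rpl41, which encodes the shortest ribosomal protein, measured 419, 434, 208 and 320 CPM in the wild-type and 183, 255, 303 and 262 CPM in the Cdk8 KO lines (log2 fold change -0.46 ± 0.26, edgeR adjusted p = 1.00). Wild-type line 3 lay among the Cdk8 KO lines, so the groups overlapped. Rps4x, Rpl10 and Rpl36a are on chromosome X together with Rpl39. Their log2 fold changes were -0.37 ± 0.27, -0.26 ± 0.19 and -0.36 ± 0.27 with Senexin B and -0.05 ± 0.23, 0.09 ± 0.20 and -0.04 ± 0.23 in DMSO. Rpl39 was at -0.10 ± 0.18 and 0.21 ± 0.21.

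The next comparison asked what 48 h of CDK8 and CDK19 inhibition does to these mRNAs in wild-type lines. No gene was called, and a raised median came mainly from 1 of the 4 lines. Of 79 tested, edgeR called 0, against 0% of 12989 genes, and DESeq2 called 0, against 0.139%. With the line as a block 0 were called, against 0.346%, and the lowest adjusted p among the ribosomal protein genes was 0.401. At an unadjusted p below 0.05 the count was 0, against 3.8% of all genes, and 2 with the block (Rps19 and Rpl15), against 10.3%. The median log2 fold change was 0.15 beside 0.02 for all genes, with 64 higher and 15 lower, where 52.9% of all genes were higher. Scaled by total counts it was 0.05 beside -0.08, with a split of 52 to 27.

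In wild-type line 2, 76 of the 77 genes with enough counts in every library were higher with Senexin B, with a median of 0.51, and the exception was Rpl30. In lines 1, 3 and 4 the medians were -0.04, -0.07 and 0.14, with 34, 30 and 54 genes higher. Leaving out line 2 gave a median of 0.04, a split of 46 to 33 and 0 genes called. The Senexin B library of line 2 also stood apart in genes that are not ribosomal. The median deviation of 1707 other genes with exons of at most 1734 bases was 0.35 there and between -0.12 and 0.07 in the other 15 libraries. That of mitochondrial ribosomal protein genes was 0.36 there, the highest of the 16 libraries, and that of the other TOP RNAs was -0.03, up from -0.22 in the DMSO library of the same line. The part of these movements in the result was not tested.

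**Figure D4:**
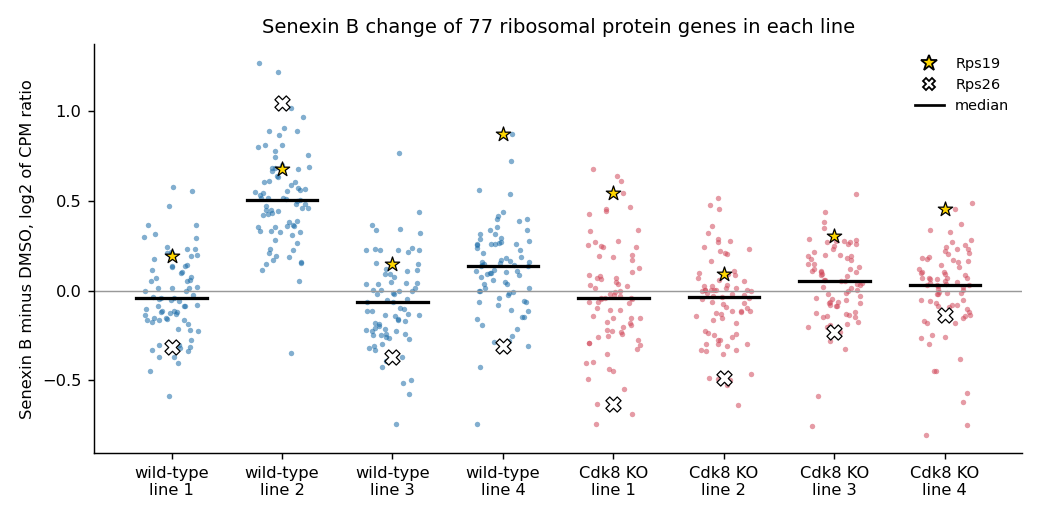
Senexin B minus DMSO (log2 of the CPM ratio) within each of 8 lines for 77 ribosomal protein genes, 1 point per gene, with black bars for the median. Wild-type line 2 is shifted up to 0.51, the other lines lie between -0.07 and 0.14, Rps19 is above 0 in 8 of 8 lines and Rps26 is below 0 in 7 of 8.

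In Cdk8 KO lines the ribosomal protein genes were centred on zero under Senexin B. Of 79 genes edgeR and DESeq2 called 0, against 0% of 13285 genes, and 0 with the block, against 0.0527%, with a lowest adjusted p of 0.337. The median was 0.00 beside 0.01 for all genes, with 40 higher and 39 lower, where 51.5% of all genes were higher. Scaled by total counts the split was 28 to 51, beside a median of -0.03 for all genes. At an unadjusted p below 0.05 there was 1 gene, Rps19, against 1.83% of all genes, and there were 5 with the block, against 10.3%. Those 5 were Rps19, Rps14 and Rpl27, higher with Senexin B, and Rps26 and Rps27l, lower. Within lines, the medians were -0.04, -0.03, 0.05 and 0.03, all smaller than in wild-type line 2.

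Higher in all 4 wild-type lines with Senexin B were 10 of the 79 genes, against 8.38% of all genes, and 0 were lower in all 4, against 9.46%. In the Cdk8 KO lines 8 were higher in all 4, against 8.89%, and 8 were lower, against 10.3%. Shares of the ribosomal protein genes were near those of all genes except for the missing lower ones in the wild-type lines, where line 2 had only 1 gene lower.

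Rps19, the small subunit protein most often mutated in Diamond-Blackfan anaemia, had the lowest p in both genotypes. It measured 460, 307, 293 and 346 CPM in wild-type DMSO lines 1 to 4 and 526, 490, 324 and 633 CPM with Senexin B. The Cdk8 KO lines had 333, 386, 424 and 383 CPM in DMSO and 485, 411, 524 and 524 CPM with Senexin B. Every line was higher with Senexin B than without, although the groups overlapped in both genotypes. The log2 fold change was 0.50 ± 0.24 in wild-type lines and 0.35 ± 0.13 in Cdk8 KO lines, and both had an edgeR adjusted p of 1.00. With the block it was 0.48 ± 0.18 (adjusted p = 0.401) and 0.35 ± 0.11 (adjusted p = 0.337). The interaction was -0.14 ± 0.27, so a difference between the genotypes was not detected. This gene lies at chr7:24884371-24889806 on the plus strand in the annotation of the files, and 56.8% of its mRNA windows are unique.

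A fit over both genotypes with the 8 lines as blocks was added after these values were seen. It called 0 of 80 ribosomal protein genes, against 0.946% of 14164 genes, and gave Rps19 a log2 fold change of 0.41 ± 0.10 (edgeR adjusted p = 0.053). Without wild-type line 2 that was 0.37 ± 0.10 (adjusted p = 0.096). In the fit over 8 lines, 8 genes had an unadjusted p below 0.05, all higher, against 16.4% of all genes. Without wild-type line 2 there were 12, of which 6 were higher and 6 lower, against 16.9%, and the called count was 0, against 0.673%. Neither count exceeded the share of all genes.

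Over the 8 lines, Rpl4, Rps16 and Rps19 were higher with Senexin B in every line, 3 of 77 genes, against 2.03% of genes with as many counts. None was lower in every line, against 2.84%. Rpl4, a large subunit protein at the exit tunnel, had within-line log2 differences of only 0.11 to 0.29. Leaving wild-type line 2 aside, Rpl14, Rps18, Rps25 and Rps26 were lower in the other 7 lines, 4 of 77, against 4.45% of genes, and the count of genes higher in those 7 stayed at 3, against 3.2%. These genes were named after their values were seen.

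Rps26, which sits at the mRNA exit channel of the small subunit, showed how much a single line decided. In wild-type DMSO lines 1 to 4 it measured 1920, 822, 764 and 982 CPM, and with Senexin B 1542, 1697, 591 and 793 CPM. In the Cdk8 KO lines it measured 1173, 817, 1266 and 854 CPM in DMSO and 757, 582, 1079 and 779 CPM with Senexin B. The log2 difference between Senexin B and DMSO was 1.04 in wild-type line 2, whereas it lay between -0.63 and -0.13 in the other 7 lines. The log2 fold change was 0.05 ± 0.42 in wild-type and -0.36 ± 0.23 in Cdk8 KO lines, with an edgeR adjusted p of 1.00 in both. In the fit over both genotypes with all 8 lines it was -0.19 ± 0.16 (edgeR adjusted p = 0.61). Leaving out wild-type line 2, the only line of opposite sign, it was -0.35 ± 0.08 over 7 lines (adjusted p = 0.055), a value that depends on having chosen that line after seeing it.

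Rpl15, whose start carries the long run printed above, had the next lowest p in wild-type lines. It measured 17.5, 14.7, 15.7 and 18.3 CPM in DMSO and 20.7, 18.5, 21.3 and 23.1 CPM with Senexin B. It was higher with Senexin B in all 4 lines, as were 8.38% of all genes. The lowest treated line lay just above the highest DMSO line, and how many other genes separate this way was not counted. The log2 fold change was 0.35 ± 0.17 (edgeR adjusted p = 1.00). In Cdk8 KO lines it was 0.04 ± 0.21, with 16, 17.7, 22.5 and 20.9 CPM in DMSO and 13.3, 21.6, 23.9 and 20.7 CPM with Senexin B. The interaction was -0.29 ± 0.26 (adjusted p = 1.00), so the genotypes were not shown to differ.

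**Figure D5:**
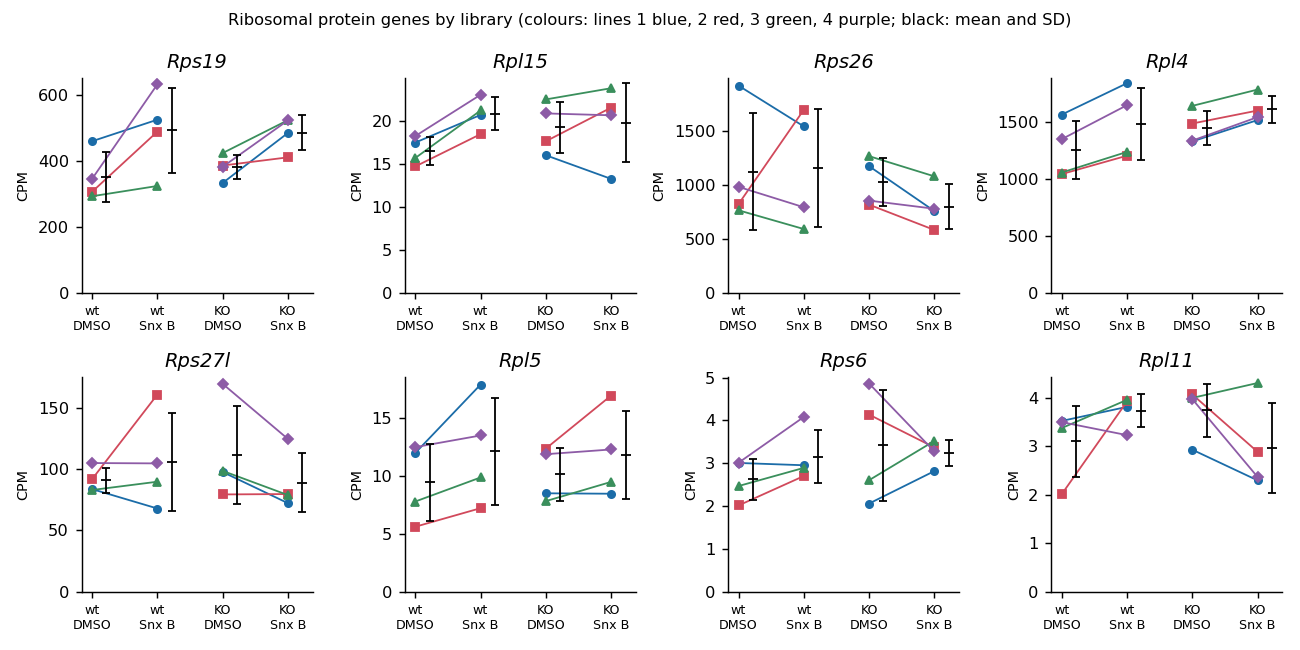
CPM of 8 ribosomal protein genes in the 16 libraries (vertical axes from 0), with lines joining DMSO and Senexin B of the same line and black marks for mean and SD. Rps19 is higher with Senexin B in every line, Rps26 is higher with Senexin B only in wild-type line 2, and Rps6 and Rpl11 rest on under 80 counts per library.

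The stalk proteins are among the best measured. Rplp0, the scaffold of the stalk, measured 3234, 2187, 2114 and 2527 CPM in wild-type DMSO and 3370, 2438, 1810 and 3148 CPM with Senexin B, and between 2378 and 3225 CPM in all Cdk8 KO libraries. Rplp1 had a log2 fold change with Senexin B of 0.29 ± 0.20 in wild-type and 0.20 ± 0.13 in Cdk8 KO lines, and Rplp2 lay between 153 and 277 CPM throughout. Rpl8, a large subunit protein, lay between 1080 and 1774 CPM over the 16 libraries.

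Genes with functions beyond the ribosome had no call either. Rpl5, partner of Rpl11 in the 5S particle, measured 12.0, 5.60, 7.78 and 12.5 CPM in wild-type DMSO and 17.9, 7.20, 9.85 and 13.5 CPM with Senexin B, all 4 higher. Its Cdk8 KO lines had 8.48, 12.3, 7.81 and 11.9 CPM and 8.45, 16.9, 9.47 and 12.3 CPM. Rps6, the S6 kinase substrate, measured 2.01 to 3.01 CPM in wild-type DMSO and 2.06 to 4.86 CPM in Cdk8 KO DMSO. Rpsa, also known as the laminin receptor, lay between 36.9 and 73.7 CPM, and Rps27a, made as a fusion to ubiquitin, between 13.3 and 26.7 CPM. Their groups overlapped in every comparison.

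The interaction asks whether the Senexin B change differs between genotypes. Of 80 genes edgeR and DESeq2 called 0, against 0% of 14164 genes, and at an unadjusted p below 0.05 there were 0, against 0.473%. The median was -0.14 beside 0.00 for all genes, with 15 above zero and 65 below, where 49.7% of all genes were above. Without wild-type line 2 it was -0.0037 with a split of 38 to 42. With all 8 lines as blocks, 0 of the 80 were called, against 0%, and 0 had an unadjusted p below 0.05, against 3.24% of all genes. In the fit of all lines without blocks, the lowest p values were those of Rpl23a, Rpl11, Rps27l, Rpl31 and Rps25. Their interaction terms were -0.56 ± 0.34, -0.60 ± 0.37, -0.54 ± 0.39, -0.49 ± 0.36 and -0.41 ± 0.32. Rps27l measured 91.8 CPM in DMSO and 161 CPM with Senexin B in wild-type line 2, and its term without that line was -0.28 ± 0.38.

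Genes that act around ribosomal proteins were described from lists beside the 83. Of all genes tested, edgeR called 0.00759% for genotype in DMSO and 0% in each other comparison. The medians of all genes lay between -0.0036 and 0.019 over the 5 comparisons. Of the 7 chaperones of ribosomal proteins, 6 were tested and 0 were called in any comparison, with medians of 0.19 for Senexin B in wild-type and 0.20 in Cdk8 KO lines. Of the 8 genes that control TOP translation, 0 were called in any comparison, with a median of -0.15 for Cdk8 KO against wild-type in DMSO. The fused and paralogous genes outside the rule gave 0 calls among 6 tested. Of the 283 pseudogenes, 122 were tested in the DMSO comparison with 0 called and a median of 0.12. The mitochondrial ribosomal protein genes had medians of -0.14 for Cdk8 KO against wild-type with Senexin B, 0.11 for Senexin B in wild-type lines and -0.03 in Cdk8 KO lines, with 0 called. For the interaction, their median was -0.16 (22 above zero, 57 below) and that of the pseudogenes -0.22 (30 above, 102 below). The shift of the ribosomal protein genes there (-0.14) was thus not particular to them. The chaperones were at -0.04, the fused and paralogous genes at -0.06 and TOP translation control at 0.12.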

How the data were processed

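The deposited files hold raw counts per gene, 1 file per library. According to the study's methods, 50-base single-end reads from a poly(A) SENSE kit were trimmed with Trimmomatic, aligned with STAR to GENCODE M13 (GRCm38) and counted by featureCounts. The command lines in the file headers count exons by gene and give no option for strand, for multi-mapping reads or for reads on several genes, so by the tool's defaults strand was ignored and such reads were left out. Headers of 15 of 16 files name a modified annotation folder, with identical gene IDs and lengths throughout. Symbols came from an ID table (50376 IDs matched, 310 not).

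Levels are CPM with TMM factors over 16 libraries, depth 13145876 to 18349425 counts. Tests used edgeR 4.0.16 (filterByExpr, TMM, robust quasi-likelihood, Benjamini-Hochberg over all genes, adjusted p below 0.05 and absolute log2 fold change above 1), fitted on the groups compared and checked on simulated data, with DESeq2 1.42.0 as an alternative. SE is the absolute log2 fold change divided by the square root of F. Sequence uniqueness used GENCODE M21 transcripts. The limit of 3 counts covers counting error only, SDs are over lines, and SEs include the spread between lines.

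Replicate numbers mark lines. DMSO and Senexin B libraries of a number deviated together (r of 0.559 to 0.781 in wild-type and 0.765 to 0.873 in Cdk8 KO over 14164 genes, own number closest in 4 of 4), so the block pairs them within a genotype. Across genotypes a number marks different lines. There r ran from -0.15 to 0.43, with a mean of 0.01 in DMSO and 0.12 with Senexin B. The own number was closest in 1 of 4 in each. Whether anything else was shared by number was not tested, and the block fits of the genotype comparisons are given only as an alternative. No 2 libraries were copies (lowest chi-square per gene 21.5 over 120 pairs).

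Named genes were the 5 with the lowest p in each comparison, the 5 highest and 5 lowest per kilobase of exon, l-suffixed paralogs with their parents, stalk, 5S, Rps6, Rpsa and Rps27a genes, and those on chromosome X. Some genes that this rule names are not reported here. The genes and lists were chosen with earlier results of these data known. Alternatives were other scalings, filters, tools and limits, pseudogene reads added, the block, 16 libraries in 1 fit and each library left out.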

Additional observations from a re-analysis of the deposited data

Results flagged for a closer look

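Among 146 groups of 4 values (levels, shares and deviations of the genes named), 5 held a library whose gap to the nearest of the others exceeded Dixon's limit as a part of the group's range, where chance gives about 1 in 20. Rpl11 was at 2.01 CPM in wild-type DMSO replicate 2, with the others between 3.38 and 3.53 CPM, and at 2.93 CPM in Cdk8 KO DMSO replicate 1, with the others between 3.98 and 4.07 CPM. Rpl3l was at 3.62 CPM in wild-type Senexin B replicate 4, with the others between 0.573 and 1.07 CPM. Rpl39 was at 74.1 CPM in Cdk8 KO Senexin B replicate 1, with the others between 91.3 and 93.2 CPM. Rps27l was at 124.5 CPM in Cdk8 KO Senexin B replicate 4, with the others between 72.2 and 79.6 CPM.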

How the results depend on the processing

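No ribosomal protein gene was called in any of the 5 comparisons under any alternative, including adjusted p alone, a limit of 0.1, DESeq2, the replicate block and each library left out. The group medians moved by less than 1 SD between lines except for Senexin B in Cdk8 KO lines (0.0019, SD 0.047), where the median was 0.061 in the fit over both genotypes with 8 lines and -0.074 without Cdk8 KO Senexin B replicate 3. Leaving out 1 library gave a median between 0.01 and 0.25 for genotype in DMSO, between -0.13 and 0.05 for genotype with Senexin B, between 0.05 and 0.27 for Senexin B in wild-type lines, between -0.074 and 0.047 for Senexin B in Cdk8 KO lines and between -0.28 and -0.06 for the interaction. The cause was not tested. The replicate block gave medians of 0.13, 0.00, 0.16, -0.01 and -0.13 in the same order and changed no call. The lowest adjusted p over the ribosomal protein genes and all alternatives was 0.053. The fits without wild-type line 2, those over both genotypes and the block without a fold limit were chosen after seeing the data. The share of counts on these genes moved by less than 1 SD under its alternatives. The 25 lowest-p gene values kept their sign in every alternative. Depth limits 16 genes with a median below 100 counts.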
